A study of Drosophila montana with 12 samples.

Results

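Among the 31233 contigs (assembled stretches of transcript) in the count files of this *Drosophila montana* study, 3951 (12.7%) had a genomic scaffold as their blast hit and are described here. They were chosen by the second column of the files, which gives 1 hit per contig, as the contigs whose hit starts with NW_, the RefSeq prefix for a piece of assembled genome. For comparison, 17395 contigs (55.7%) had a hit starting with XP_, the prefix of a predicted protein, and 6895 (22.1%) a hit starting with FBgn, the prefix of a FlyBase gene. All 3951 scaffold hits had the form of NW_ followed by a scaffold number. The study searched protein sequences first, nucleotide sequences next and genomes last, so a scaffold hit means that the earlier searches gave no hit that passed. This order is taken from the study's methods, since the files hold the retained hit alone.

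RNA-seq counts came from 12 libraries, each of 10 pooled whole females aged 21 d, with 3 libraries in each of 4 groups. Diapausing females were sampled at LD 16:8 (16 h light, 8 h dark) and at the critical day length (CDL). Nondiapausing females were sampled at the CDL and at LD 22:2. At the CDL some females of a line enter diapause and others do not. The labels give it as 17.5 h light and 5.5 h dark, which does not fill a day of 24 h. The study's methods give 18.5 h light and 5.5 h dark. Each pool came from 1 isofemale line, that is, the descendants of 1 wild-caught female. The LD 16:8 and LD 22:2 pools were all of line 175OJ8, and each CDL group had 1 pool each of lines 175OJ8, 265OJ8 and 3OL8 (replicates 1, 2 and 3). Light cycle and line were therefore partly confounded, and replicates in the LD 16:8 and LD 22:2 groups are pools of 1 line. Group fits took 1 estimate of spread per contig from all 12 libraries. Their p-values thus also use the spread between lines at the CDL.

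Reproductive diapause is the arrest of ovary development by which females of northern *Drosophila* species overwinter, and it is induced by short days. Ovaries with growing eggs make up much of a nondiapausing female and are small in a diapausing one. A transcript piece that resembles a related genome but no known protein or transcript can come from an untranslated region, from an intron of unspliced RNA, from a noncoding RNA, from a repeat, or from a coding gene that no annotation holds. The hit does not tell these apart. In whole females, fewer cells of a type and less RNA per cell cannot be told apart either.

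Counted reads per library ranged from 2986505 to 6637623. The yolk protein contigs contig_8009 (Yp2) and contig_633 (Yp3), which mark vitellogenic ovaries and fat body, were lower in every diapausing than in every nondiapausing library. Their level was 23.5 to 124 CPM (counts scaled to an equal library size) for Yp2 and 102 to 493 CPM for Yp3 in diapausing females, against 258 to 453 and 848 to 1493 CPM in nondiapausing females. TMM normalization factors, which rescale library sizes so that most contigs do not change, were 0.837 to 0.921 in the diapausing and 1.09 to 1.15 in the nondiapausing libraries.

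Scaffold-only contigs were of lower abundance than contigs with a protein or gene hit. Their median level was 6.33 CPM (quartiles 3.19 and 13.0), against 9.55 CPM in XP_ contigs (4.52 and 24.1) and 6.88 CPM in FBgn contigs (3.27 and 16.6). Levels over 100 CPM were reached by 75 scaffold-only contigs (1.90%), against 995 XP_ contigs (5.72%) and 328 FBgn contigs (4.76%). The low end differed less, with 98 scaffold-only contigs (2.48%) under 1 CPM against 2.09% of XP_ and 3.55% of FBgn contigs. At least 1 read was counted in all 12 libraries for 3881 scaffold-only contigs (98.2%). These levels are per contig and not per length, since contig lengths were not used here.

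A few contigs held much of the signal. The 10 most abundant scaffold-only contigs took 16.1% of all scaffold-only reads and the 100 most abundant took 38.0%. The most abundant, contig_8934 (hit NW_002014431), alone took 7.18%, ranging from 3.40% to 13.0% across libraries. It averaged 4829 CPM, the highest mean level of any contig in the table. The next were contig_9156 (NW_002014431) at 775 CPM and contig_24346 (NW_002014482) at 748 CPM.

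Reads in scaffold-only contigs made up 5.67%, 6.94% and 6.23% of counted reads in diapausing LD 16:8 libraries and 5.66%, 6.14% and 6.47% in diapausing CDL libraries. They made up 6.13%, 6.23% and 7.27% in nondiapausing CDL libraries and 7.23%, 6.46% and 6.39% in nondiapausing LD 22:2 libraries. The share was 6.19% ± 0.49 in diapausing and 6.62% ± 0.50 in nondiapausing libraries (SD, n = 6 each), and the groups overlapped. At the CDL it was 6.09% ± 0.41 in diapausing against 6.54% ± 0.63 in nondiapausing libraries (SD, n = 3 each). In each of the 3 lines the diapausing CDL library had the lower share of the pair.

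The level of the median scaffold-only contig, on the TMM scale, was higher in diapausing libraries at the CDL. Each contig's log2 CPM was set against its own mean over the 12 libraries, and the median of these deviations was taken per library. It was 0.03, 0.27 and 0.04 in diapausing LD 16:8 libraries and -0.01, 0.12 and 0.11 in diapausing CDL libraries, against -0.19, -0.15 and -0.05 in nondiapausing CDL libraries and 0.06, -0.07 and -0.03 in nondiapausing LD 22:2 libraries. At the CDL the diapausing and nondiapausing libraries did not overlap. Across all libraries they did, since LD 22:2 replicate 1 lay among the diapausing ones. The share of reads uses library totals without TMM factors. Scaled by library size alone, the median scaffold-only contig was lower in diapausing females by a log2 fold change of -0.04 at the CDL and -0.11 outside it, the direction of the share.

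LD 16:8 replicate 2 stood apart, with a median deviation of 0.27 against -0.19 to 0.12 in the other 11 libraries. XP_ and FBgn contigs at like mean CPM were at -0.06 in that library, their lowest value. LD 22:2 replicate 1 was the highest of its group. Results outside the CDL are therefore also given without LD 16:8 replicate 2, or without both libraries.

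**Figure D1:**
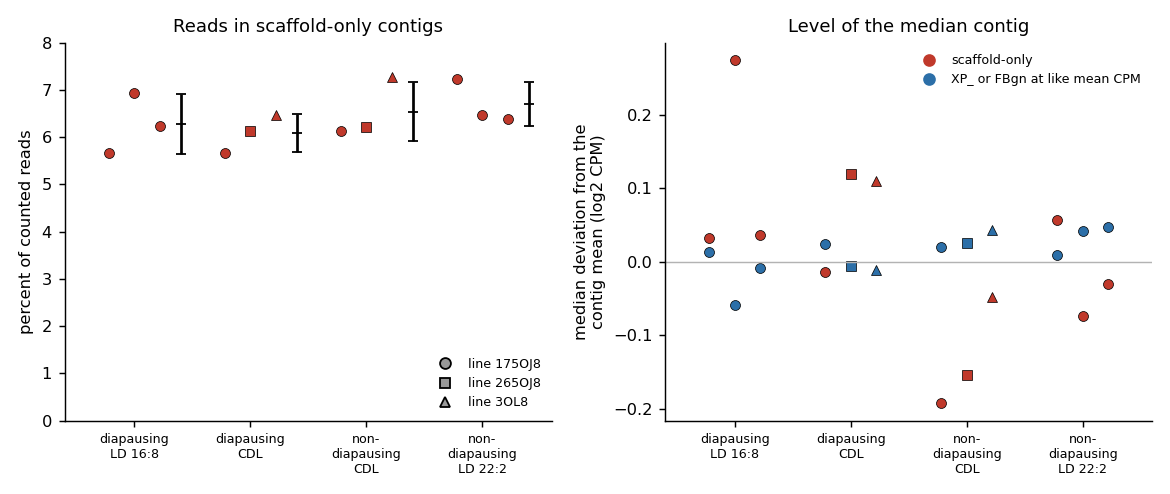
Left, percent of counted reads in scaffold-only contigs in each of the 12 libraries by group, with the group mean and SD (n = 3) beside the points. Right, the median deviation of contigs from their own mean (log2 CPM) for scaffold-only contigs (red) and for XP_ or FBgn contigs at like mean CPM (blue), where LD 16:8 replicate 2 lies at 0.27 and -0.06. Marker shape gives the isofemale line.

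The first comparison asked how scaffold-only contigs differed between diapausing and nondiapausing females kept under the same light cycle, the CDL. Of the 3951 contigs, 1617 (40.9%) were differentially expressed (DE) at a false discovery rate (FDR) below 0.05 in edgeR's likelihood ratio test, where 49.5% of all contigs were. They were higher in diapausing females in 1058 cases (26.8% of the scaffold-only contigs, beside 25.7% of all contigs) and lower in 559 (14.1%, beside 23.7%). The share called lower was thus the one furthest from that of all contigs. Of the contigs called, 65.4% were higher in diapausing females, against 44.6% in XP_ and 60.2% in FBgn contigs. The median log2 fold change was 0.31 in scaffold-only contigs, -0.12 in XP_ contigs, 0.26 in FBgn contigs and 0.08 in all contigs.

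The sign of that median depended on the scaling. A change of scaling moves all contigs by about the same amount, so it cannot test the distance from the other contigs. With library sizes alone the median of scaffold-only contigs was -0.04 in place of 0.31 and that of all contigs -0.27 in place of 0.08, and 533 of 1437 scaffold-only contigs called were higher. XP_ contigs were then at -0.47 and FBgn contigs at -0.09. The scaffold-only median lay 0.23 above that of all contigs under both scalings.

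Since calls depend on abundance, XP_ and FBgn contigs were also read at like mean CPM, that is, within 10 bins set at the deciles of the scaffold-only contigs and weighted equally. This is a description, and no test was run on it. In diapausing females, 26.8% of scaffold-only contigs were called higher and 14.1% lower, against 23.5% and 24.7% of XP_ and FBgn contigs at like mean CPM. Taken apart, XP_ contigs gave 22.3% higher and 27.2% lower, and FBgn contigs 26.7% higher and 18.5% lower. The median log2 fold change was 0.31 in scaffold-only contigs, against -0.10 in XP_ and 0.24 in FBgn contigs at like mean CPM. FBgn contigs were thus nearer to the scaffold-only contigs than XP_ contigs were on all 3 values. The median size of the difference, whatever its sign, was 0.66 in scaffold-only contigs and 0.75 in XP_ and FBgn contigs at like mean CPM.

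The pattern by abundance differed between the directions. In the lowest bin (0.27 to 1.77 CPM) 10.9% of scaffold-only contigs were called higher and 1.01% lower in diapausing females. In the ninth bin (15.8 to 28.4 CPM) 30.6% were called higher and 24.3% lower. XP_ contigs were called lower more often than scaffold-only contigs in each of the 10 bins, for example 40.2% of them in the ninth. In the highest bin 36.1% of scaffold-only contigs were called higher, against 42.4% of FBgn and 30.1% of XP_ contigs.

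**Figure D2:**
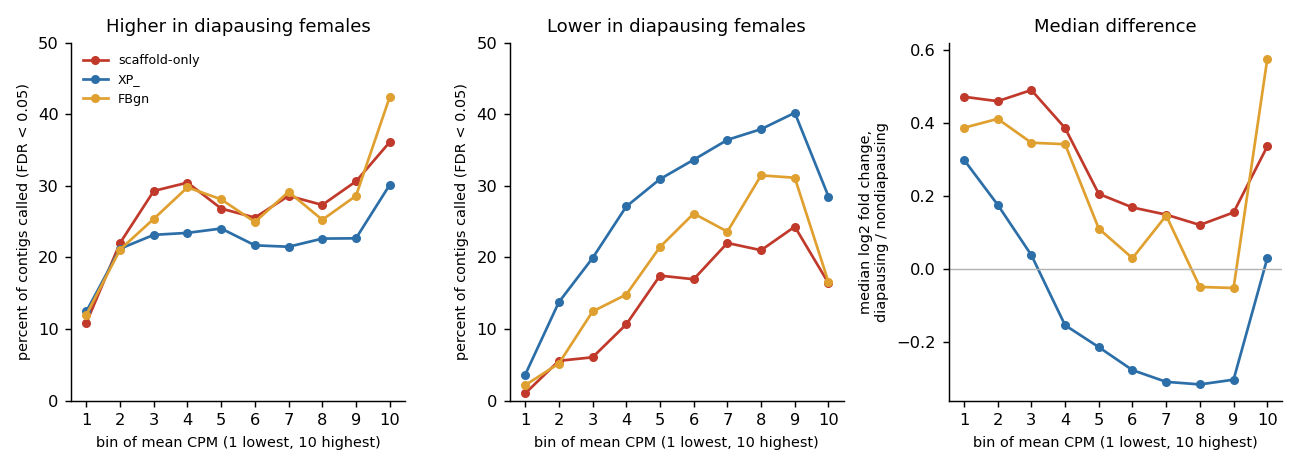
Percent of contigs called higher (left) and lower (middle) in diapausing than in nondiapausing females at the CDL, and median log2 fold change (right), by bin of mean CPM for scaffold-only (red), XP_ (blue) and FBgn (yellow) contigs. The share called lower reached 24.3% in scaffold-only and 40.2% in XP_ contigs in the ninth bin.

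Outside the CDL, diapausing LD 16:8 females were compared with nondiapausing LD 22:2 females, so that diapause state and light cycle changed together, within line 175OJ8 and with no library shared with the CDL comparison. Here 1650 scaffold-only contigs (41.8%) were DE, beside 49.6% of all contigs. They were higher in diapausing females in 991 cases (25.1%, beside 24.8% of all contigs) and lower in 659 (16.7%, beside 24.8%). The median log2 fold change was 0.23 in scaffold-only, -0.13 in XP_, 0.19 in FBgn and 0.05 in all contigs. With library sizes alone it was -0.11 in scaffold-only and -0.29 in all contigs, and 520 of 1563 called were higher. The distance of 0.19 under both scalings again follows from the like shift of all contigs. Without LD 16:8 replicate 2 the count was 1355, of which 700 were higher, and the scaffold-only median was 0.11. Without LD 22:2 replicate 1 as well the count was 1090, with 588 higher and a median of 0.15. Without LD 22:2 replicate 1 alone it was 1373, with 921 higher and a median of 0.31. Without LD 22:2 replicate 2, which did not stand apart, it was 1317, with 734 higher and a median of 0.19. The fall in the count was thus not particular to the libraries that stood apart. Their part in the result was not tested beyond this.

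In both diapause comparisons 1232 scaffold-only contigs were DE, which is 76.2% of those called at the CDL and 74.7% of those called outside it. Over all contigs these shares were 80.8% and 80.6%. All 1232 had the same sign in both, with 753 higher and 479 lower in diapausing females. So had all 12485 contigs called in both over the whole set. A difference of more than 2 on the log2 scale was called for 119 of the 3951 contigs at the CDL (63 higher, 56 lower). Outside it, this held for 104 (51 higher, 53 lower), and 59 were in both sets. Of all 31233 contigs, 1566 at the CDL and 1649 outside it passed this limit, a larger share in each case. Some calls rested on 1 library. The highest library was at least 5 times the next in 9 of the 1617 scaffold-only contigs called at the CDL. Over all contigs this held for 57 of 15451. The lowest log2 fold change at the CDL, -5.83 in contig_22528, was of this kind, with 12345 reads in nondiapausing CDL replicate 1. Over all 3951 contigs, called or not, 3399 (86.0%) had the same sign in the pair of comparisons, and Pearson's r between their log2 fold changes was 0.83. This r is across contigs, which are not independent of each other. The corresponding values were 89.2% and 0.89 in XP_ and 85.8% and 0.84 in FBgn contigs.

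**Figure D3:**
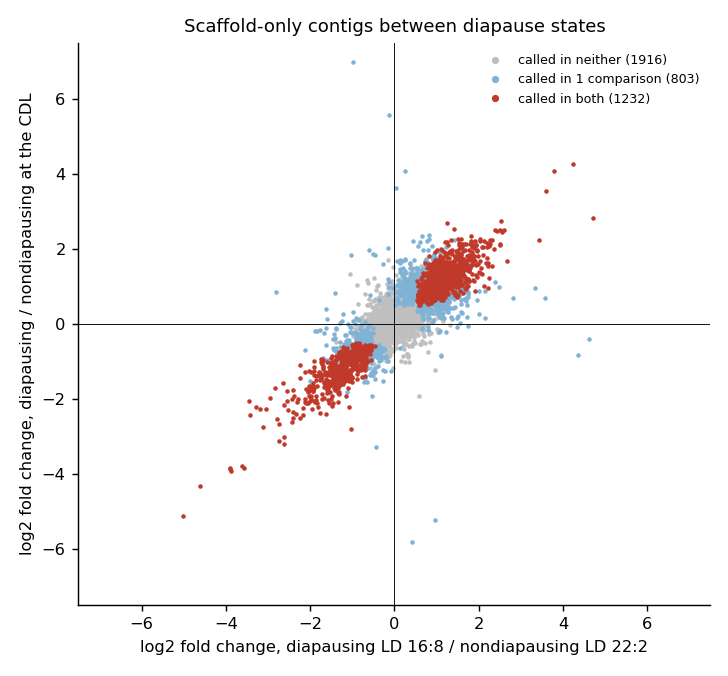
Log2 fold change of each of the 3951 scaffold-only contigs between diapausing and nondiapausing females at the CDL (vertical axis) and between diapausing LD 16:8 and nondiapausing LD 22:2 females (horizontal axis). Red points (1232) were called in both comparisons and lie at the upper right (753) and lower left (479).

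The 2 higher and the 2 lower contigs with the lowest FDR and no overlap between groups were the same 4 in both comparisons. Among the lower ones, contig_25868 (NW_002014421) had 1.74, 1.45 and 2.65 CPM in diapausing LD 16:8 and 1.02, 1.80 and 1.21 CPM in diapausing CDL libraries, against 49.7, 44.9 and 50.5 CPM in nondiapausing CDL and 82.9, 60.9 and 48.0 CPM in nondiapausing LD 22:2 libraries. The diapausing libraries held 5 to 13 reads each. Every nondiapausing library was thus far above every diapausing one, with a log2 fold change of -5.14 ± 0.41 (SE) at the CDL (FDR 2.49e-43) and -5.02 ± 0.36 outside it (FDR 1.14e-46). The quasi-likelihood test of edgeR, which allows for uncertainty in the dispersion, gave adjusted p = 1.72e-08 and 8.41e-09.

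A second lower contig, contig_17410, also had NW_002014421 as its hit. It had 4.13, 2.70 and 3.67 CPM in diapausing LD 16:8 and 3.05, 4.01 and 3.38 CPM in diapausing CDL libraries, against 54.1, 45.9 and 51.7 CPM in nondiapausing CDL and 64.8, 51.6 and 40.9 CPM in nondiapausing LD 22:2 libraries. The groups did not overlap, and the log2 fold change was -3.85 ± 0.31 at the CDL (FDR 2.08e-35) and -3.90 ± 0.30 outside it (FDR 4.45e-37). Neither contig differed between light cycles within a diapause state beyond its spread (FDR 0.910 to 0.9997).

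Among the higher ones, contig_9459 (NW_002014441) had 36.5, 28.2 and 37.9 CPM in diapausing LD 16:8 and 38.2, 34.3 and 37.5 CPM in diapausing CDL libraries, against 6.40, 6.77 and 10.98 CPM in nondiapausing CDL and 5.13, 8.85 and 7.47 CPM in nondiapausing LD 22:2 libraries. Its log2 fold change was 2.24 ± 0.26 at the CDL (FDR 7.78e-16) and 2.26 ± 0.25 outside it (FDR 8.29e-17). The other, contig_9712, again with NW_002014421 as its hit, had 39.4, 36.3 and 46.9 CPM in diapausing LD 16:8 and 29.1, 23.7 and 37.0 CPM in diapausing CDL libraries, against 5.96, 6.77 and 7.72 CPM in nondiapausing CDL and 7.26, 9.37 and 10.1 CPM in nondiapausing LD 22:2 libraries. The log2 fold change of contig_9712 was 2.15 ± 0.26 at the CDL (FDR 1.54e-14) and 2.20 ± 0.24 outside it (FDR 4.10e-17). Diapausing and nondiapausing libraries did not overlap in either contig. One scaffold thus held contigs that changed in both directions.

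The 3951 contigs shared 79 scaffolds, so that many of them may be pieces of the same stretch of genome. Only 35 scaffolds were hit once, while 17 scaffolds hit by at least 20 contigs held 3779 contigs (95.6%). The 3 scaffolds hit most often were NW_002014419 (597 contigs, 15.1%), NW_002014420 (571, 14.5%) and NW_002014424 (507, 12.8%), which together held 34.6% of the scaffold-only reads. Their median levels were alike, at 5.92, 6.10 and 5.84 CPM per contig. NW_002014431 was hit by fewer contigs (382) but held 17.9% of the reads, since contig_8934 is among them.

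At the CDL, 229 contigs of NW_002014419 were DE (141 higher and 88 lower in diapausing females), 228 of NW_002014420 (160 and 68) and 225 of NW_002014424 (151 and 74), or 38.4%, 39.9% and 44.4% of each. Across the 17 scaffolds hit by at least 20 contigs, the share called had a median of 39.9% and reached 50.8%. The median log2 fold change ranged from -0.01 to 0.50 and was positive in 16 of them. On 14 of the 17, more contigs were called higher than lower in diapausing females. On the TMM scale this excess was therefore spread over most of these scaffolds. With library sizes alone it turned over the scaffold-only contigs as a whole, as given above. On the 54 scaffolds hit by at most 5 contigs, 35 of 89 contigs (39.3%) were DE, 29 higher and 6 lower. Contigs on the same scaffold varied together about as much as contigs on different ones. Over 1334 contigs of at least 10 CPM, the median r between deviations from the group means across the 12 libraries was 0.11 for 81138 pairs on 1 scaffold and 0.11 for 807973 pairs on different scaffolds, which share libraries and depth.

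The next comparisons asked how day length changed scaffold-only contigs within a diapause state. In diapausing females, 16 of 3951 (0.405%) were DE between LD 16:8 and the CDL, where 0.403% of all contigs were. Of these, 9 were higher at LD 16:8 (0.228%, beside 0.215%) and 7 lower (0.177%, beside 0.189%). The LD 16:8 and CDL libraries did not overlap in 410 scaffold-only contigs (10.4%, beside 10.9% of all contigs). The quasi-likelihood test called none of them (0.0064% of all contigs), with 295 at an unadjusted p below 0.05, while DESeq2 called 15, of which 6 were among the 16. These shares were close to those of all contigs. The median log2 fold change was 0.04, and without LD 16:8 replicate 2 it was -0.06.

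Single libraries decided many of these calls. In 6 of the 16 contigs, beside 44 of the 126 called over all contigs, 1 library was at least 5 times above every other. In contig_25635 (NW_002014419) it was LD 16:8 replicate 2, at 958 CPM beside 8.26 and 9.79 CPM in the other LD 16:8 libraries, against 4.88, 6.82 and 6.04 CPM in diapausing CDL libraries. Its log2 fold change of 5.78 ± 0.97 (FDR 0.00222, quasi-likelihood adjusted p = 0.154) was 0.61 without that library. The others, named after their values were seen, were contig_29695 with 1443 reads in LD 16:8 replicate 2, contig_22634 with 8549 reads in diapausing CDL replicate 2, contig_14212 and contig_13965 with 6757 and 1436 reads in diapausing CDL replicate 1, and contig_14617 with 1112 reads in diapausing CDL replicate 3. Each had at most 97 reads in any other library. Without LD 16:8 replicate 2, 6 scaffold-only contigs were called, without LD 16:8 replicate 3, 27, and in a model that also held isofemale line, 32, of which 10 were among the 16.

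The named contigs without such a library moved less. In contig_305 (NW_002014421) the level was 50.4, 56.0 and 34.1 CPM in diapausing LD 16:8 against 13.4, 22.5 and 20.3 CPM in diapausing CDL libraries, with no overlap and a log2 fold change of 1.32 ± 0.27 (FDR 0.00252, quasi-likelihood adjusted p = 0.107). For contig_31381, with the same scaffold as its hit, it was 10.4, 10.4 and 10.2 CPM against 20.9, 30.3 and 16.2 CPM, a log2 fold change of -1.12 ± 0.28 (FDR 0.0216, quasi-likelihood adjusted p = 0.185). That call was lost without any 1 of the LD 16:8 libraries (FDR 0.0814 to 0.137) or without diapausing CDL replicate 2 (FDR 0.211). In contig_21964 (NW_002014440) it was 2.61, 3.11 and 1.43 CPM against 5.69, 6.01 and 5.80 CPM (-1.29 ± 0.34, FDR 0.0271, quasi-likelihood adjusted p = 0.208), from 7 to 30 reads a library. That call was lost without any 1 of the 5 libraries compared other than LD 16:8 replicate 2 (FDR 0.0705 to 0.196).

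In nondiapausing females, the CDL and LD 22:2 differed for 6 scaffold-only contigs (0.152%), beside 0.224% of all contigs. Of these, 2 were higher at the CDL (0.0506%, beside 0.08%) and 4 lower (0.101%, beside 0.144%). The CDL and LD 22:2 libraries did not overlap in 504 scaffold-only contigs (12.8%, beside 12.6% of all contigs). The quasi-likelihood test called none (0.0032% of all contigs), with 253 at an unadjusted p below 0.05, and DESeq2 called 2, neither among the 6. In 2 of the 6, beside 38 of the 70 called over all contigs, 1 library was at least 5 times above every other. These were both contigs called higher, and they were named after their values were seen. They were contig_2347, with 6197 reads in nondiapausing CDL replicate 3 and 44 to 98 in the others, and contig_22528, with 12345 reads in nondiapausing CDL replicate 1 and 28 to 106 in the others. Without nondiapausing CDL replicate 2 the count was 2, without replicate 3 it was 3, without diapausing CDL replicate 3 it was 10, and with isofemale line as a term it was 11.

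Of the lower ones, contig_25292 (NW_002014474) had 8.19, 9.86 and 7.72 CPM in nondiapausing CDL against 33.5, 19.96 and 23.5 CPM in nondiapausing LD 22:2 libraries, a log2 fold change of -1.57 ± 0.34 (FDR 0.00493, quasi-likelihood adjusted p = 0.349). That call was lost without any 1 of the nondiapausing CDL libraries (FDR 0.0712 to 0.0774) or without LD 22:2 replicate 1 (FDR 0.186). In contig_22456 (NW_002014421) the levels were 7.15, 5.15 and 8.02 CPM against 17.7, 15.1 and 10.9 CPM (-1.13 ± 0.27, FDR 0.0162). The groups did not overlap in either contig. The contig_22456 call was lost without nondiapausing CDL replicate 1 or 2 (-1.18 and -0.92, FDR 0.0750 and 0.556) and without LD 22:2 replicate 1 or 2 (-0.93 and -1.10, FDR 0.392 and 0.116).

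The interaction asked whether the change at the shorter day length differed between diapausing and nondiapausing females. The CDL is the longer day in diapausing and the shorter day in nondiapausing females. The term thus sets the groups outside the CDL together against the CDL groups. Libraries outside the CDL are all of the same line, while each CDL group holds several lines. Line and light cycle are therefore partly confounded in this term for every contig. The interaction was significant for 47 scaffold-only contigs (1.19%), beside 1.07% of all contigs. In 40 the change was more positive in diapausing females (1.01%, beside 0.704% of all contigs) and in 7 more negative (0.177%, beside 0.365%). At like mean CPM, 0.436% of XP_ and FBgn contigs were called in the positive and 0.258% in the negative direction. Taken apart, XP_ contigs gave 0.319% and 0.221%, and FBgn contigs 0.754% and 0.362%. FBgn contigs were thus nearer to the scaffold-only contigs in the positive direction. In 44 of the 47 the fitted change had opposite signs in the diapause states. In these the fitted CDL level was the lower one in both states, or the higher one in both. The 47 were selected for a large difference between the fitted changes of the diapause states, which by itself favors opposite signs. The count of 44 is therefore not separate evidence of opposite responses. The quasi-likelihood test called 7 scaffold-only contigs (0.186% of all contigs), 6 of them in the positive direction, and all 7 were among the 47.

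LD 16:8 replicate 2 was the highest of the 12 libraries in 22 of the 47 contigs and LD 22:2 replicate 1 in 11. The count was 21 without LD 16:8 replicate 2, 26 without LD 22:2 replicate 1, 26 without nondiapausing CDL replicate 2 and 17 without LD 16:8 replicate 2 and LD 22:2 replicate 1 together. The median interaction over all scaffold-only contigs was 0.17 on the log2 scale with all libraries and 0.003 without that pair, beside -0.03 in all contigs in both cases. The shift of the median contig toward a positive interaction thus moved with these 2 libraries, and their part in it was not tested further. With isofemale line as a term the median was 0.33, beside -0.03 in all contigs. That fit called 43 scaffold-only contigs, of which 17 were among the 47.

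The contig with the lowest interaction FDR, contig_25292, had 57.8, 84.8 and 32.0 CPM in diapausing LD 16:8 against 14.6, 26.5 and 18.4 CPM in diapausing CDL libraries, beside its lower level at the CDL in nondiapausing females given above. In both diapause states the CDL level was thus the lower one, and the interaction was 3.12 ± 0.47 (FDR 2.63e-07, quasi-likelihood adjusted p = 0.00881). In contig_10499 (NW_002014419) the levels were 28.7, 28.6 and 25.5 CPM in diapausing LD 16:8 against 14.4, 12.03 and 15.5 CPM in diapausing CDL libraries, and 5.96, 5.30 and 7.42 CPM in nondiapausing CDL against 10.4, 10.1 and 17.0 CPM in nondiapausing LD 22:2 libraries. Its interaction was 2.02 ± 0.37 (FDR 7.34e-05, quasi-likelihood adjusted p = 0.0173).

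The opposite direction was seen in contig_31381. To its values in diapausing females above, nondiapausing females added 7.74, 9.57 and 5.34 CPM at the CDL against 3.85, 2.43 and 4.42 CPM at LD 22:2, and the interaction was -2.22 ± 0.43 (FDR 0.000259, quasi-likelihood adjusted p = 0.0283). Among the 3 most abundant contigs, contig_24346 had 1265, 1718 and 1120 CPM in diapausing LD 16:8 against 201, 408 and 847 CPM in diapausing CDL libraries, and 127, 303 and 394 CPM in nondiapausing CDL against 1312, 682 and 601 CPM in nondiapausing LD 22:2 libraries. No groups of 1 diapause state overlapped, and the interaction was 3.15 ± 0.68 (FDR 0.00251, quasi-likelihood adjusted p = 0.0583). The line test below was also significant for this contig (FDR 0.00233), and its lowest library at the CDL was line 175OJ8 in both diapause states.

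**Figure D4:**
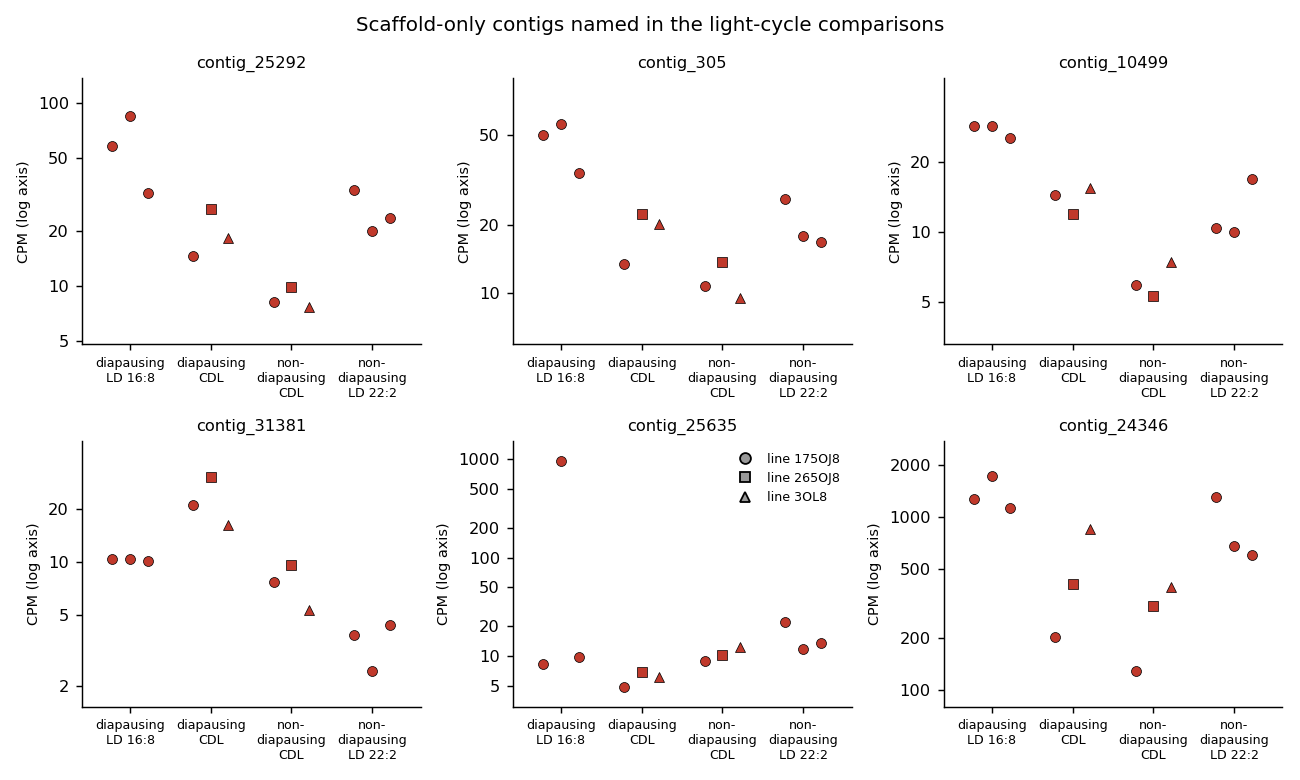
CPM (log axis) of 6 scaffold-only contigs in each library, by group, with marker shape for the isofemale line. In contig_25292, contig_305, contig_10499 and contig_24346 the CDL libraries lie below the LD 16:8 and LD 22:2 libraries of the same diapause state, contig_31381 shows the opposite at LD 16:8 and LD 22:2, and contig_25635 rests on 1 library at 958 CPM.

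Variation between isofemale lines was tested within the CDL groups, each with 1 library a line. Line was significant for 76 scaffold-only contigs (1.92%), beside 1.85% of all contigs, 1.43% of XP_ and 2.13% of FBgn contigs. At like mean CPM the share of XP_ and FBgn contigs was 1.28%, or 1.12% of XP_ and 1.79% of FBgn contigs taken apart. The quasi-likelihood test called 32 (1.05% of all contigs), all among the 76. The fitted lines differed by 1.06 to 6.41 on the log2 scale in these contigs (median 1.79, beside 1.77 in the 395 XP_ and FBgn contigs called). Line 3OL8 was the one furthest from the middle line in 38 of the 76, higher in 28 and lower in 10. In the XP_ and FBgn contigs called it was so in 229 of 395. One library was at least 5 times above all others in 9 of the 76. The count was 48 without diapausing CDL replicate 1, 31 without diapausing CDL replicate 3 and 49 without nondiapausing CDL replicate 3, each of which leaves 1 line with 1 library.

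The median contig varied about as much between lines as between pools of 1 line. The median SD of log2 CPM was 0.34 between the 3 lines at the CDL and 0.34 between replicates of line 175OJ8 at LD 16:8 and LD 22:2, and the median ratio of these SDs was 1.003. XP_ and FBgn contigs at like mean CPM were at 0.33, 0.33 and 1.003. The biological coefficient of variation, edgeR's measure of spread beyond counting error, had a median of 0.208 in scaffold-only contigs and 0.205 in these. Both SDs of log2 CPM include counting error. The SD between replicates also includes LD 16:8 replicate 2 and LD 22:2 replicate 1, which were not left out here. Their near-equal medians thus do not measure variation between lines alone. In the highest of the 10 bins of mean CPM, line was called for 6.57% of scaffold-only, 3.04% of XP_ and 7.01% of FBgn contigs.

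The abundant contig_8934 differed by line, and no difference between diapause states or light cycles was called for it in fits that pool the 3 lines at the CDL. At the CDL it had 2320, 3120 and 8565 CPM in diapausing and 1812, 3833 and 8367 CPM in nondiapausing females of lines 175OJ8, 265OJ8 and 3OL8. Line 3OL8 was thus highest and line 175OJ8 lowest in both diapause states, with line 3OL8 above line 175OJ8 by 2.04 ± 0.26 on the log2 scale (line FDR 1.35e-11). The 6 libraries of line 175OJ8 at LD 16:8 and LD 22:2 were at 4722, 5401 and 6611 CPM and at 4880, 4675 and 3639 CPM, above both CDL libraries of that line. Its log2 fold change between diapausing and nondiapausing females at the CDL was -0.00063 ± 0.47 (SE, FDR 0.999). Without this contig, scaffold-only contigs held 5.25% to 6.68% of the counted reads of a library.

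Line 3OL8 was also highest in contig_7863 (NW_002014508), with 50.3 CPM in diapausing and 15.1 CPM in nondiapausing CDL libraries against 1.33 to 2.85 CPM in the other 4 CDL libraries. Its line FDR was 8.19e-20. In contig_18210 (NW_002014419) line 3OL8 had 19.1 and 7.42 CPM against 1.03 to 2.61 CPM in the other lines at the CDL (FDR 2.98e-14). The 6 libraries of line 175OJ8 at the other light cycles stood between, at 3.42 to 5.65 CPM.

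The other lines led in 4 named contigs. In contig_23189 (NW_002014440) line 265OJ8 had 135 CPM in diapausing and 127 CPM in nondiapausing CDL libraries, against 55.1 and 32.4 CPM in line 3OL8 and 18.9 and 6.55 CPM in line 175OJ8 (line FDR 4.38e-22). In contig_5675 (NW_002014453) line 3OL8 was the low one, with 7.98 CPM in diapausing and 5.34 CPM in nondiapausing CDL libraries, while lines 175OJ8 and 265OJ8 had 35.6 and 43.9 CPM in diapausing and 19.5 and 20.5 CPM in nondiapausing CDL libraries (FDR 2.79e-11).

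In contig_20868 (NW_002014431) line 175OJ8 was highest and line 3OL8 lowest in both diapause states (line FDR 9.45e-08). The levels in lines 175OJ8, 265OJ8 and 3OL8 were 32.9, 17.8 and 1.93 CPM in diapausing and 14.1, 10.9 and 4.16 CPM in nondiapausing CDL libraries. This call was lost without diapausing CDL replicate 3 (FDR 0.103). In contig_17251 (NW_002014419) line 175OJ8 had 57.3 CPM in diapausing and 29.5 CPM in nondiapausing CDL libraries, against 10.1 to 12.5 CPM in the other lines (line FDR 6.72e-08), and that call was lost without diapausing CDL replicate 1 (FDR 0.0913).

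**Figure D5:**
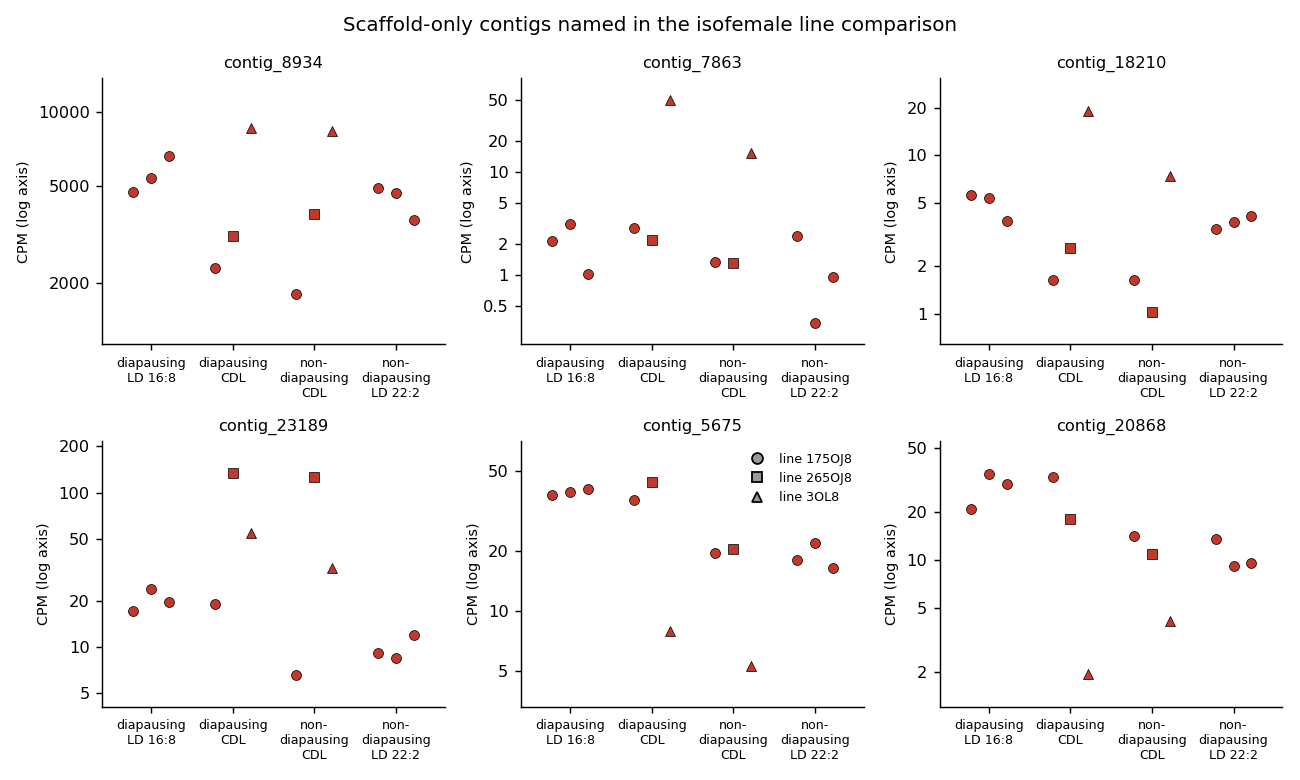
CPM (log axis) of 6 scaffold-only contigs in each library, by group, with marker shape for the isofemale line. Line 3OL8 (triangles) lies highest at the CDL in contig_8934, contig_7863 and contig_18210 and lowest in contig_5675 and contig_20868, while line 265OJ8 (squares) lies highest in contig_23189 at 135 and 127 CPM.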

How the data were processed

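Whole-female RNA was sequenced on the SOLiD platform. As the study's methods describe, the authors trimmed and error-corrected the reads, assembled them de novo with CLC software, discarded contigs that hit a non-arthropod species, kept the 321 contigs without a hit, and counted uniquely mapped reads per contig with HTSeq. The deposited values are raw counts per contig with 1 blast hit each. Reads that map to several places were thus not counted, which lowers repeated sequence. Blank rows (2 in each of 6 files) were left out. None of the hits matched the reference gene table (15263 genes), and no contig sequence was used.

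Counts of all 31233 contigs in 12 libraries were fitted in edgeR 4.0.16 (R 4.3.3, limma 3.58.1) with TMM factors, Cox-Reid dispersions and 1 coefficient per group. Likelihood ratio tests were called at a Benjamini-Hochberg FDR below 0.05 over all contigs, as in the study, and every FDR in the text is from this test. Adjusted p from edgeR's quasi-likelihood test is named as such. SD of log2 CPM used a pseudocount of 0.5. The isofemale line test compared lines within the CDL groups. Single-library contigs are those whose highest library is at least 5 times the next. The fits were tested on simulated data.

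The alternatives were quasi-likelihood, DESeq2 1.42.0, RLE factors, library sizes alone, a filter at a minimum count of 10, isofemale line or replicate number as a term, only the libraries compared, and each library left out. The fits without LD 16:8 replicate 2 and LD 22:2 replicate 1 together, the line term in both diapause comparisons and the like-CPM comparison under library sizes alone were added after the data were seen. The members and lists were chosen with earlier results of these data known. No p was computed for the share of reads.

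In each test, the contigs named were the 2 higher and the 2 lower with the lowest FDR among those called whose groups did not overlap. For line, they were the 2 with the lowest FDR for each line that was highest in both CDL groups. The 3 most abundant contigs and the 3 scaffolds hit most often were added.

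CDL libraries of 1 line share a replicate number and come from the same isofemale line. These libraries are paired by line. Deviations from the group means correlated at 0.185, 0.113 and 0.240 in lines 175OJ8, 265OJ8 and 3OL8 (3853 scaffold-only contigs). LD 16:8 and LD 22:2 libraries of 1 number gave 0.000096, -0.111 and -0.0034 and share only a number. LD 16:8 replicate 2 gave 0.111 with LD 22:2 replicate 1 and 0.0011 with LD 22:2 replicate 3, where no number is shared. A correlation near that of line 265OJ8 thus does not by itself show a pair. Labels do not say that pools are separate cultures, so p-values measure the spread between these pools.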

Additional observations from a re-analysis of the deposited data

Results flagged for a closer look

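The interaction term sets the groups outside the CDL together against the CDL groups. By edgeR's likelihood ratio test it was significant in 47 scaffold-only contigs. The named contigs among them had interactions on the log2 scale of 3.12 (contig_25292), 2.15 (contig_305), 2.02 (contig_10499) and -2.22 (contig_31381), all 4 also called by the quasi-likelihood test. The interaction was 3.15 in contig_24346, 6.36 in contig_25635, -4.28 in contig_23189 and -5.31 in contig_7863, which the quasi-likelihood test did not call. In contig_25635 LD 16:8 replicate 2 held 4620 reads, against 38 and 48 in the other LD 16:8 libraries. In contig_7863, contig_23189 and contig_24346 the isofemale line test was also past the threshold. The CDL groups alone hold lines 265OJ8 and 3OL8, so that line and light cycle are partly confounded in this term for all 47. The fit with isofemale line as a term called 43 contigs, of which 17 were among the 47.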

How the results depend on the processing

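The counts of scaffold-only contigs called in the diapause comparisons stayed within 1.5 times of 1617 and 1650 under the alternatives run, except that the second gave 1090 without LD 16:8 replicate 2 and LD 22:2 replicate 1 together. The balance turned with library sizes alone, where 533 of 1437 and 520 of 1563 were higher in diapausing females, against 1058 of 1617 and 991 of 1650 with TMM. Leaving out 1 library gave 1264 to 1667 and 1317 to 1688. With a replicate block the counts were 1683 and 1688, and the block changed no count by more than 1.5 times. Light-cycle counts were less stable, and the cause was not tested. For LD 16:8 over the CDL in diapausing females (16), the quasi-likelihood test of edgeR gave 0 (295 at an unadjusted p below 0.05; DESeq2 gave 15, of which 6 were shared), isofemale line as a term 32, the fit without both libraries 5, and leaving out 1 library 6 to 27. For the CDL over LD 22:2 in nondiapausing females (6), the quasi-likelihood test gave 0 (253 at an unadjusted p below 0.05), DESeq2 2, the line term 11, only the libraries compared 19, and leaving out 1 library 2 to 10. For the interaction (47), the quasi-likelihood test gave 7, the line term 43 (17 of them shared) and the fit without both libraries 17. Leaving out 1 library gave 21 to 62. For isofemale line (76), the quasi-likelihood test gave 32, the 6 CDL libraries alone 125, and leaving out 1 library 31 to 95. The difference in read share was -0.43 percentage points between diapausing and nondiapausing libraries and -0.58 to -0.30 with 1 library left out, within the spread.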
